A study of Mus musculus with 18 samples.

Results

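The 37 genes described here carry out glycolysis, store and release glycogen, and move glucose and lactate across the muscle membrane. They are a pathway list matched by gene symbol, and all 37 were among the 16089 genes that passed the filter on low counts, out of 29439 genes with a count. RNA was measured in the tibialis anterior (TA) muscle, a fast-twitch leg muscle, of mice at the tumour endpoint and of their controls, in 18 libraries of 9 groups with 2 biological replicates each. The LLC tumour group had Lewis lung carcinoma cells injected into muscle in C57BL/6 mice, and its LLC controls received PBS; the labels do not say which muscle received the cells. The KPCML1 group received 1000 KPCML1 cells and the KPC group 50000 KPC cells orthotopically, both in C57BL/6 mice, and both were set against the same 2 Matrigel controls, C57BL/6 mice given Matrigel alone. The C26 tumour group had C26 colon carcinoma cells under the skin in CD2F1 mice, and its C26 controls received PBS. In the KPP tumour group a tamoxifen-induced genetic tumour grew in mice labelled C57BL/6, and its KPP controls carried no tumour; the labels do not give the alleles or say whether these controls received tamoxifen. KPC and KPCML1 are each 1 cell line, and no age or sex is given for any group. With 2 libraries a group, p-values measure the spread between these animals only.

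Muscle fibres take up glucose through the insulin- and contraction-responsive transporter GLUT4, trap it with hexokinase, and either store it as glycogen or send it through glycolysis to pyruvate and lactate. Fast fibres hold large amounts of glycolytic enzymes, and for many steps they use a muscle isozyme (Pfkm, Pgam2, Eno3, Pygm) in place of the form found in other tissues. Phosphofructokinase sets the pace of the pathway and is switched by fructose 2,6-bisphosphate, which the Pfkfb enzymes make and break down. Glycogen breakdown is started by phosphorylase kinase acting on phosphorylase, and glycogen-targeting subunits of protein phosphatase 1, such as Ppp1r3a and Ppp1r3c, bring that phosphatase to glycogen, where it activates glycogen synthase by removing phosphate.

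Libraries held 22546541 to 36673780 estimated fragments. Fragments of mitochondrially encoded genes were 5.94 to 16.9% of tumour libraries and 14.6 to 22.4% of control libraries, and lower in each tumour library than in its own controls; their part in the results below was not tested, but leaving those genes out ended 1 of 75 member calls. All 10 defining skeletal muscle markers were detected in every library. Their summed level was 61999 to 62392 CPM in LLC tumour libraries, against 70719 to 74097 CPM in LLC controls, 61924 to 70434 CPM in KPCML1 and 71693 to 83416 CPM in KPC libraries, against 71874 to 75916 CPM in Matrigel controls. It was 41388 to 65042 CPM in C26 tumour libraries, against 68287 to 69819.7 CPM in C26 controls, and 58794 to 61707 CPM in KPP tumour libraries, against 67994 to 73540.3 CPM in KPP controls. In bulk muscle, fewer cells of a type and less RNA per cell cannot be told apart. Log2 fold changes are given ± a standard error derived from edgeR's test. It rests on a spread estimated over all 9 groups, not on the scatter of the compared libraries alone. Values below are in CPM, counts scaled to a common library size, where a gene is followed across libraries, and in TPM, which also accounts for transcript length, where genes are compared with each other.

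In the main fit, more of these genes were called lower than higher in every model, though in KPC and KPCML1 this depended on the fit. Of the 37 genes, 13 fell and 2 rose in LLC, 7 fell and 2 rose in KPCML1, 9 fell and 6 rose in KPC, 15 fell and 3 rose in C26, and 15 fell and 3 rose in KPP (edgeR's quasi-likelihood test, Benjamini-Hochberg adjusted p under 0.05 over all genes tested). Among all genes tested, 13.6% were called in LLC, 8.53% in KPCML1, 29.1% in KPC, 21.3% in C26 and 36.7% in KPP. By direction, 6.24% of all genes fell and 7.39% rose in LLC, 4.38% fell and 4.15% rose in KPCML1, 13.7% fell and 15.3% rose in KPC, 9.8% fell and 11.5% rose in C26, and 19.3% fell and 17.4% rose in KPP. The marker and pathway lists counted below are to be read against the same shares. The median log2 fold change of the 37 genes was -0.43 in LLC, -0.37 in KPCML1, -0.43 in KPC, -0.48 in C26 and -0.59 in KPP, against medians of all genes between -0.04 and 0.04. Both tumour libraries lay apart from both controls, in either direction, for 31 of the 37 genes in LLC, 30 in KPCML1, 28 in KPC, 29 in C26 and 25 in KPP, against 63.7, 60.0, 65.4, 65.8 and 64.1% of all genes tested. KPCML1 and KPC share their controls, so their values are given side by side and not as repeats of each other. With upper-quartile scaling the KPC split was 13 lower and 4 higher, and with RLE size factors 7 lower and 6 higher. Without KPC tumour replicate 1, more members were called higher than lower in KPC. Without Matrigel control replicate 2, the KPC calls were evenly split. In KPCML1 neither direction led in the fits without 1 of its own libraries. Leaving out 1 library took the KPCML1 count of 9 to 0 without KPCML1 tumour replicate 2 or Matrigel control replicate 2, to 2 without KPCML1 tumour replicate 1 or Matrigel control replicate 1, to 4 without either C26 control, and to 5 without LLC tumour replicate 1 or either LLC control. The KPC count of 15 became 6 without Matrigel control replicate 2, 8 without Matrigel control replicate 1 or KPC tumour replicate 1, and 9 without KPC tumour replicate 2. In LLC the count of 15 became 8 without LLC control replicate 1. In each of these fits the group left with 1 library is assumed to vary like the others. The losses named gene by gene below are only those from leaving out a comparison's own libraries. Leaving out a library of another comparison also ended some calls, such as Pkm and Pgam1 in KPC, Pkm and Pfkfb3 in KPCML1, Pgam1 in KPP and Ugp2 in C26.

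**Figure D1:**
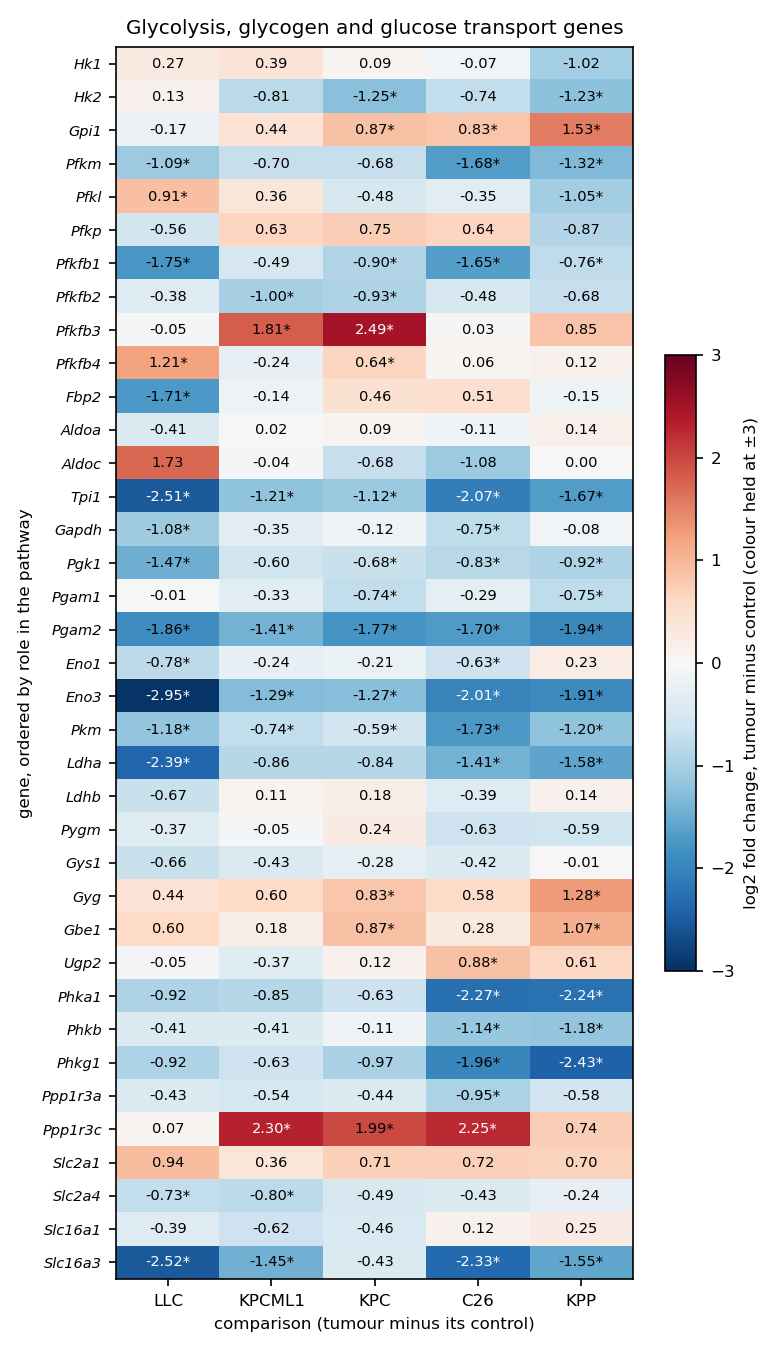
Log2 fold change of each of the 37 genes (rows, ordered by role) in each tumour group minus its own control (columns), n = 2 libraries a group. Red is higher and blue lower in tumour-bearing muscle, numbers give the log2 fold change, and an asterisk marks an edgeR adjusted p under 0.05; Tpi1, Pgam2, Eno3 and Pkm carry an asterisk in all 5 columns, all lower.

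Triose phosphate isomerase (Tpi1), muscle phosphoglycerate mutase (Pgam2), muscle enolase (Eno3) and pyruvate kinase (Pkm) fell in all 5 comparisons. Of the other genes, 24 were called in at least 1 comparison and 9 in none (Hk1, Pfkp, Aldoa, Aldoc, Ldhb, Pygm, Gys1, Slc2a1 and Slc16a1). In all, 28 of the 37 genes were called in at least 1 comparison, against 55.0% of all genes tested. Among all genes tested, 1.55% were called lower in all 5, and none of the 37 was called higher in all 5, against 1.32% of all genes. The 37 genes together made up 3.08 to 5.34% of the TPM of tumour libraries and 3.69 to 5.39% of that of control libraries. Within experiments, both tumour libraries lay below both controls in LLC, KPC and KPP, and the groups overlapped in KPCML1 and C26. With mitochondrially encoded transcripts left out, both tumour libraries lay below both controls in all 5 comparisons: the 37 genes then made up 4.65 and 4.65% of TPM in LLC tumour libraries, against 7.17 and 6.95% in LLC controls, and 7.09 and 6.05% in KPCML1 and 6.40 and 6.15% in KPC libraries, against 8.39 and 7.59% in Matrigel controls. In C26 tumour libraries they made up 5.76 and 3.62%, against 6.89 and 6.08% in C26 controls, and in KPP tumour libraries 4.70 and 4.80%, against 6.73 and 6.77% in KPP controls. In the control libraries the most abundant of them per length was Aldoa at 15504 to 22432 TPM, followed by Gapdh at 4674 to 8405 and Eno3 at 4630.0 to 6058 TPM, and the least abundant was Aldoc at 0.0486 to 0.390 TPM.

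Glucose enters the pathway through hexokinase, of which muscle uses mainly Hk2, and glucose 6-phosphate is then turned to fructose 6-phosphate by Gpi1. Gpi1 rose in 3 models while Hk2 fell in 2. Gpi1 had 589 and 662 CPM in the LLC tumour libraries, against 715 and 691 CPM in LLC controls. For Gpi1, the KPCML1 libraries had 966 and 1201 CPM and the KPC libraries 1473 and 1461 CPM, against 835 and 768 CPM in Matrigel controls. The Gpi1 values were 1186 and 1202 CPM in C26 tumour libraries, against 705 and 636 CPM in C26 controls, and 2063 and 2203 CPM in KPP tumour libraries, against 655 and 824 CPM in KPP controls. For Gpi1, both tumour libraries lay below both controls in LLC and above them in KPCML1, KPC, C26 and KPP. Each KPCML1, KPC, C26 and KPP tumour library lay above every control library of the series, whose highest Gpi1 value was 835 CPM. The Gpi1 log2 fold change by edgeR was 0.87 ± 0.17 in KPC (adjusted p = 0.00253), 0.83 ± 0.17 in C26 (adjusted p = 0.00428) and 1.53 ± 0.17 in KPP (adjusted p = 7.15e-05). Gpi1 did not pass the test in LLC and KPCML1, with log2 fold changes of -0.17 and 0.44 (edgeR adjusted p = 0.128 to 0.569). The Gpi1 call was lost in C26 without C26 control replicate 2 (edgeR adjusted p = 0.0571).

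Hk2 had 279 and 345 CPM in the LLC tumour libraries, against 306 and 263 CPM in LLC controls. For Hk2, the KPCML1 libraries had 179 and 244 CPM and the KPC libraries 211 and 103 CPM, against 411 and 332 CPM in Matrigel controls. The Hk2 values were 123 and 228 CPM in C26 tumour libraries, against 356 and 229 CPM in C26 controls, and 86.9 and 125 CPM in KPP tumour libraries, against 273 and 225 CPM in KPP controls. For Hk2, both tumour libraries lay below both controls in KPCML1, KPC, C26 and KPP and the groups overlapped in LLC. The Hk2 log2 fold change by edgeR was -1.25 ± 0.36 in KPC (adjusted p = 0.0185) and -1.23 ± 0.36 in KPP (adjusted p = 0.0153). Hk2 did not pass the test in LLC, KPCML1 and C26, with log2 fold changes of 0.13, -0.81 and -0.74 (edgeR adjusted p = 0.153 to 0.86). The Hk2 call was lost in KPC without Matrigel control replicate 1 or KPC tumour replicate 2 (edgeR adjusted p = 0.0836 to 0.142) and in KPP without KPP control replicate 1 or KPP tumour replicate 1 (edgeR adjusted p = 0.089 to 0.108). Hk1, the form of brain and many other tissues, was called in no comparison; its values ran from 2.52 to 9.20 CPM in the 10 tumour libraries and from 4.55 to 8.21 CPM in the 8 controls, with log2 fold changes from -1.02 to 0.39.

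Phosphofructokinase, which commits sugar to glycolysis, is made in muscle mostly from Pfkm, with Pfkl and Pfkp the liver and platelet forms. Pfkm fell in LLC, C26 and KPP. Pfkm had 1341 and 1652 CPM in the LLC tumour libraries, against 3172 and 3198 CPM in LLC controls. For Pfkm, the KPCML1 libraries had 2826 and 2101 CPM and the KPC libraries 2361 and 2626 CPM, against 4372 and 3643 CPM in Matrigel controls. The Pfkm values were 1487 and 811 CPM in C26 tumour libraries, against 4256 and 3102 CPM in C26 controls, and 1504 and 972 CPM in KPP tumour libraries, against 2940.3 and 3227 CPM in KPP controls. For Pfkm, both tumour libraries lay below both controls in all 5 comparisons. The Pfkm log2 fold change by edgeR was -1.09 ± 0.29 in LLC (adjusted p = 0.0243), -1.68 ± 0.29 in C26 (adjusted p = 0.00174) and -1.32 ± 0.29 in KPP (adjusted p = 0.00349). Pfkm did not pass the test in KPCML1 and KPC, with log2 fold changes of -0.70 and -0.68 (edgeR adjusted p = 0.0885 to 0.147). The Pfkm call was lost in LLC without any 1 of that comparison's 4 libraries (edgeR adjusted p = 0.1 to 0.176) and in KPP without KPP tumour replicate 2 (edgeR adjusted p = 0.0508).

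Pfkl had 9.82 and 12.3 CPM in the LLC tumour libraries, against 6.50 and 5.30 CPM in LLC controls. For Pfkl, the KPCML1 libraries had 9.23 and 8.95 CPM and the KPC libraries 5.88 and 4.23 CPM, against 7.72 and 6.41 CPM in Matrigel controls. The Pfkl values were 6.67 and 6.27 CPM in C26 tumour libraries, against 8.97 and 7.52 CPM in C26 controls, and 4.38 and 2.48 CPM in KPP tumour libraries, against 7.85 and 6.24 CPM in KPP controls. Pfkl was the 1 gene of the 37 called in both directions. For Pfkl, both tumour libraries lay below both controls in KPC, C26 and KPP and above them in LLC and KPCML1. The Pfkl log2 fold change by edgeR was 0.91 ± 0.27 in LLC (adjusted p = 0.0371) and -1.05 ± 0.27 in KPP (adjusted p = 0.00889). Pfkl did not pass the test in KPCML1, KPC and C26, with log2 fold changes of 0.36, -0.48 and -0.35 (edgeR adjusted p = 0.19 to 0.433). The Pfkl call was lost in LLC without any 1 of that comparison's 4 libraries (edgeR adjusted p = 0.0575 to 0.265) and in KPP without KPP control replicate 1 or KPP tumour replicate 2 (edgeR adjusted p = 0.0816 to 0.124). With upper-quartile scaling the LLC call of Pfkl was also lost (edgeR adjusted p = 0.0733). Pfkp was called in no comparison, with 2.66 to 8.49 CPM in tumour libraries, against 2.97 to 8.38 CPM in controls. Its log2 fold changes ran from -0.87 to 0.75.

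The 4 Pfkfb genes, which set the level of fructose 2,6-bisphosphate, moved in different directions. Pfkfb1, whose muscle form is made from the same gene as the liver form, fell in 4 models. Pfkfb1 had 16.8 and 14.0 CPM in the LLC tumour libraries, against 57.4 and 46.3 CPM in LLC controls. For Pfkfb1, the KPCML1 libraries had 35.1 and 35.0 CPM and the KPC libraries 23.5 and 29.4 CPM, against 45.6 and 53.1 CPM in Matrigel controls. The Pfkfb1 values were 21.4 and 13.4 CPM in C26 tumour libraries, against 55.3 and 53.9 CPM in C26 controls, and 24.7 and 25.9 CPM in KPP tumour libraries, against 42.7 and 43.1 CPM in KPP controls. For Pfkfb1, both tumour libraries lay below both controls in all 5 comparisons. The Pfkfb1 log2 fold change by edgeR was -1.75 ± 0.21 in LLC (adjusted p = 0.000253), -0.90 ± 0.20 in KPC (adjusted p = 0.00565), -1.65 ± 0.21 in C26 (adjusted p = 0.00023) and -0.76 ± 0.20 in KPP (adjusted p = 0.0102). Pfkfb1 did not pass the test in KPCML1, with a log2 fold change of -0.49 (edgeR adjusted p = 0.146). The Pfkfb1 call was lost in KPC without Matrigel control replicate 2 or KPC tumour replicate 1 (edgeR adjusted p = 0.052 to 0.0548) and in KPP without KPP tumour replicate 1 or 2 (edgeR adjusted p = 0.0537 to 0.0544).

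Pfkfb3, an inducible form with high kinase activity, was the member with the largest rise in KPC. Pfkfb3 had 287 and 283 CPM in the LLC tumour libraries, against 276 and 315 CPM in LLC controls. For Pfkfb3, the KPCML1 libraries had 697 and 496 CPM and the KPC libraries 844 and 1068 CPM, against 185 and 155 CPM in Matrigel controls. The Pfkfb3 values were 42.5 and 166 CPM in C26 tumour libraries, against 95.3 and 109 CPM in C26 controls, and 285 and 544 CPM in KPP tumour libraries, against 128 and 333 CPM in KPP controls. For Pfkfb3, both tumour libraries lay above both controls in KPCML1 and KPC and the groups overlapped in LLC, C26 and KPP. Both orthotopic groups lay above all 8 control libraries. The Pfkfb3 log2 fold change by edgeR was 1.81 ± 0.52 in KPCML1 (adjusted p = 0.0469) and 2.49 ± 0.53 in KPC (adjusted p = 0.0043). Pfkfb3 did not pass the test in LLC, C26 and KPP, with log2 fold changes of -0.05, 0.03 and 0.85 (edgeR adjusted p = 0.206 to 0.98). The Pfkfb3 call was lost in KPCML1 without any 1 of that comparison's 4 libraries (edgeR adjusted p = 0.134 to 0.277) and in KPC without Matrigel control replicate 2 (edgeR adjusted p = 0.0518).

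Pfkfb2 had 12.9 and 13.1 CPM in the LLC tumour libraries, against 16.5 and 17.4 CPM in LLC controls. For Pfkfb2, the KPCML1 libraries had 8.36 and 8.08 CPM and the KPC libraries 5.88 and 11.4 CPM, against 15.4 and 17.5 CPM in Matrigel controls. The Pfkfb2 values were 12.3 and 9.64 CPM in C26 tumour libraries, against 16.1 and 14.6 CPM in C26 controls, and 6.77 and 9.96 CPM in KPP tumour libraries, against 12.6 and 14.4 CPM in KPP controls. For Pfkfb2, both tumour libraries lay below both controls in all 5 comparisons. Pfkfb2 is the form best known from heart. The Pfkfb2 log2 fold change by edgeR was -1.0 ± 0.26 in KPCML1 (adjusted p = 0.034) and -0.93 ± 0.26 in KPC (adjusted p = 0.0177). Pfkfb2 did not pass the test in LLC, C26 and KPP, with log2 fold changes of -0.38, -0.48 and -0.68 (edgeR adjusted p = 0.0565 to 0.38). The Pfkfb2 call was lost in KPCML1 without any 1 of that comparison's 4 libraries (edgeR adjusted p = 0.0922 to 0.239) and in KPC without Matrigel control replicate 2 or KPC tumour replicate 1 (edgeR adjusted p = 0.0947 to 0.151). With length-scaled counts the Pfkfb2 calls in KPCML1 and KPC were lost as well (edgeR adjusted p = 0.0515 and 0.109).

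Pfkfb4 had 95.7 and 109 CPM in the LLC tumour libraries, against 36.96 and 51.4 CPM in LLC controls. For Pfkfb4, the KPCML1 libraries had 55.9 and 54.7 CPM and the KPC libraries 111 and 92.9 CPM, against 73.9 and 56.4 CPM in Matrigel controls. The Pfkfb4 values were 60.8 and 55.0 CPM in C26 tumour libraries, against 60.0 and 51.3 CPM in C26 controls, and 56.8 and 48.5 CPM in KPP tumour libraries, against 57.9 and 39.1 CPM in KPP controls. For Pfkfb4, both tumour libraries lay below both controls in KPCML1, above them in LLC and KPC and the groups overlapped in C26 and KPP. Pfkfb4 is best known from testis and from tumour cells. The Pfkfb4 log2 fold change by edgeR was 1.21 ± 0.22 in LLC (adjusted p = 0.00315) and 0.64 ± 0.22 in KPC (adjusted p = 0.0384). Pfkfb4 did not pass the test in KPCML1, C26 and KPP, with log2 fold changes of -0.24, 0.06 and 0.12 (edgeR adjusted p = 0.551 to 0.886). The Pfkfb4 call was lost in LLC without LLC control replicate 1 (edgeR adjusted p = 0.0729) and in KPC without any 1 of that comparison's 4 libraries (edgeR adjusted p = 0.0615 to 0.323). With upper-quartile scaling its KPC call was lost (edgeR adjusted p = 0.139). Fbp2, the muscle fructose bisphosphatase that reverses the phosphofructokinase step, was called lower in LLC, at 11.3 and 13.6 CPM in LLC tumour libraries, against 48.6 and 33.3 CPM in LLC controls. Its log2 fold change there was -1.71 ± 0.49 (edgeR adjusted p = 0.0316), and the call was lost in LLC without any 1 of that comparison's 4 libraries (edgeR adjusted p = 0.0615 to 0.212). Elsewhere its log2 fold changes ran from -0.15 to 0.51.

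**Figure D2:**
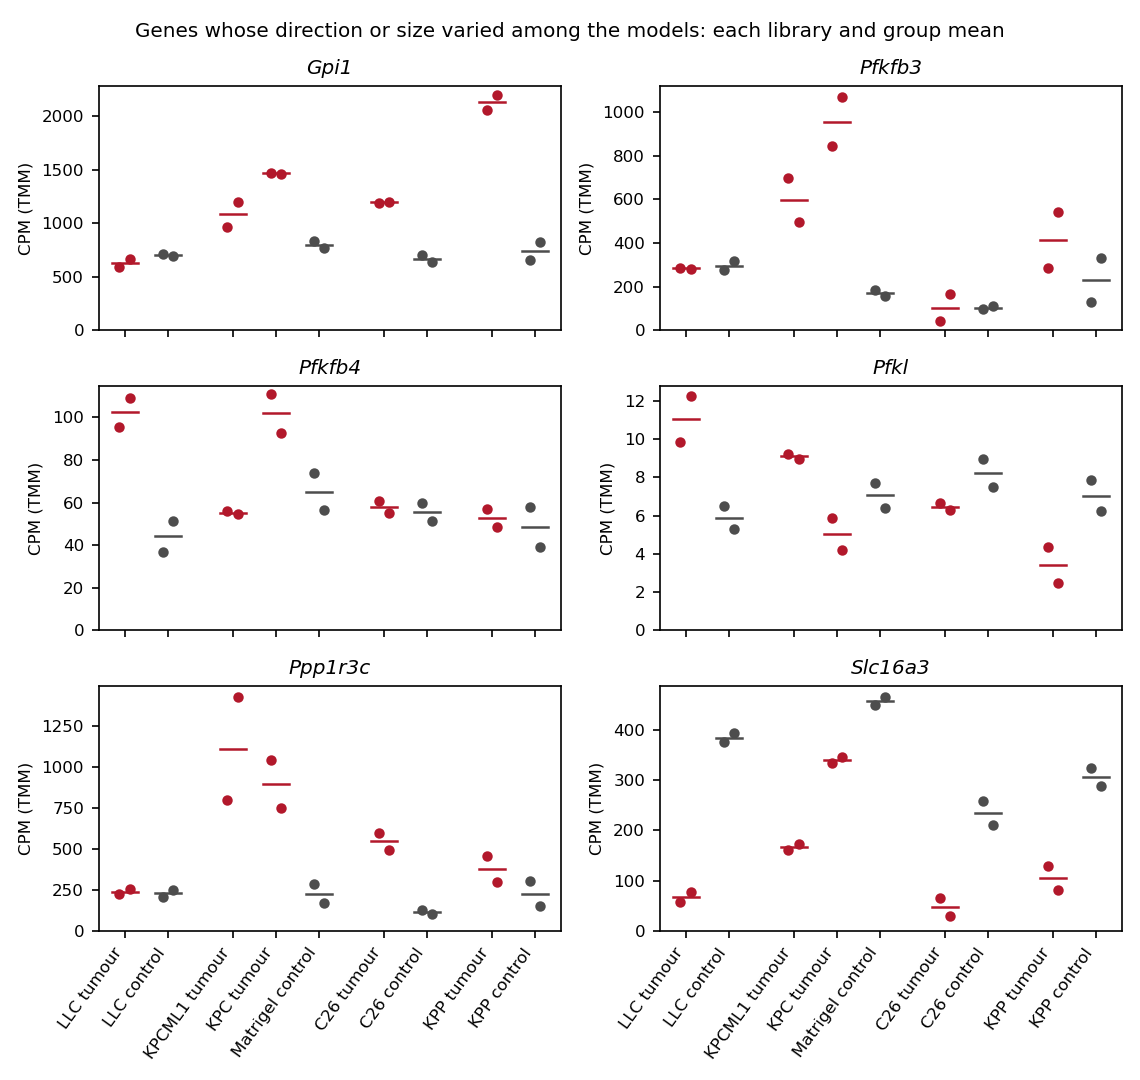
CPM of Gpi1, Pfkfb3, Pfkfb4, Pfkl, Ppp1r3c and Slc16a3 in each library (points) with the mean of the 2 libraries (lines), tumour groups in red beside their controls in grey. Gpi1 reached 2063 and 2203 CPM in KPP tumour libraries, against 655 and 824 CPM in KPP controls, while the LLC tumour libraries, at 589 and 662 CPM, lay below theirs.

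The pay-off part of glycolysis runs from triose phosphates to pyruvate. Tpi1 interconverts the triose phosphates that aldolase makes. Tpi1 had 540.0 and 535 CPM in the LLC tumour libraries, against 3345 and 2795 CPM in LLC controls. For Tpi1, the KPCML1 libraries had 1262 and 972 CPM and the KPC libraries 1106 and 1264 CPM, against 2456 and 2707 CPM in Matrigel controls. The Tpi1 values were 699 and 381 CPM in C26 tumour libraries, against 2332 and 2194 CPM in C26 controls, and 868 and 655 CPM in KPP tumour libraries, against 2101 and 2733 CPM in KPP controls. For Tpi1, both tumour libraries lay below both controls in all 5 comparisons. The Tpi1 log2 fold change by edgeR was -2.51 ± 0.27 in LLC (adjusted p = 0.000159), -1.21 ± 0.26 in KPCML1 (adjusted p = 0.0142), -1.12 ± 0.26 in KPC (adjusted p = 0.00669), -2.07 ± 0.27 in C26 (adjusted p = 0.000291) and -1.67 ± 0.27 in KPP (adjusted p = 0.000441). The Tpi1 call was lost in KPCML1 without Matrigel control replicate 1 or 2 or KPCML1 tumour replicate 2 (edgeR adjusted p = 0.052 to 0.19) and in KPC without KPC tumour replicate 1 (edgeR adjusted p = 0.0511).

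Pgam2 is the muscle phosphoglycerate mutase, and Eno3 the muscle enolase that acts directly after it. Pgam2 had 554 and 586 CPM in the LLC tumour libraries, against 2295 and 1835 CPM in LLC controls. For Pgam2, the KPCML1 libraries had 704 and 691 CPM and the KPC libraries 581 and 500.4 CPM, against 1659.8 and 2040.4 CPM in Matrigel controls. The Pgam2 values were 611 and 328 CPM in C26 tumour libraries, against 1582 and 1469 CPM in C26 controls, and 575 and 290.1 CPM in KPP tumour libraries, against 1463 and 1863 CPM in KPP controls. For Pgam2, both tumour libraries lay below both controls in all 5 comparisons. The Pgam2 log2 fold change by edgeR was -1.86 ± 0.32 in LLC (adjusted p = 0.00227), -1.41 ± 0.31 in KPCML1 (adjusted p = 0.0157), -1.77 ± 0.32 in KPC (adjusted p = 0.0015), -1.70 ± 0.32 in C26 (adjusted p = 0.00239) and -1.94 ± 0.32 in KPP (adjusted p = 0.000527). The Pgam2 call was lost in KPCML1 without Matrigel control replicate 2 or KPCML1 tumour replicate 1 or 2 (edgeR adjusted p = 0.0771 to 0.161).

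Eno3 had 1018 and 1015 CPM in the LLC tumour libraries, against 8514 and 7170.4 CPM in LLC controls. For Eno3, the KPCML1 libraries had 3230.4 and 2725 CPM and the KPC libraries 3199 and 2843 CPM, against 6982 and 7605 CPM in Matrigel controls. The Eno3 values were 2092 and 878 CPM in C26 tumour libraries, against 6141 and 5859 CPM in C26 controls, and 2225 and 1370.5 CPM in KPP tumour libraries, against 5952 and 7597 CPM in KPP controls. For Eno3, both tumour libraries lay below both controls in all 5 comparisons. Eno3 had the largest fall of any of the 37 genes in LLC. The Eno3 log2 fold change by edgeR was -2.95 ± 0.35 in LLC (adjusted p = 0.000233), -1.29 ± 0.33 in KPCML1 (adjusted p = 0.0287), -1.27 ± 0.33 in KPC (adjusted p = 0.011), -2.01 ± 0.33 in C26 (adjusted p = 0.00128) and -1.91 ± 0.33 in KPP (adjusted p = 0.000756). The Eno3 call was lost in KPCML1 without any 1 of that comparison's 4 libraries (edgeR adjusted p = 0.0849 to 0.25) and in KPC without Matrigel control replicate 2 or KPC tumour replicate 2 (edgeR adjusted p = 0.0587 to 0.0762).

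Pkm encodes the pyruvate kinase of muscle, which makes pyruvate and ATP in the last step. Pkm had 1638 and 1689 CPM in the LLC tumour libraries, against 3896 and 3658 CPM in LLC controls. For Pkm, the KPCML1 libraries had 2456 and 2530.4 CPM and the KPC libraries 2578 and 2961 CPM, against 4608 and 3705 CPM in Matrigel controls. The Pkm values were 936 and 1036 CPM in C26 tumour libraries, against 3667 and 2875 CPM in C26 controls, and 1828 and 1289.8 CPM in KPP tumour libraries, against 3250.3 and 3937 CPM in KPP controls. For Pkm, both tumour libraries lay below both controls in all 5 comparisons. The Pkm log2 fold change by edgeR was -1.18 ± 0.21 in LLC (adjusted p = 0.00282), -0.74 ± 0.21 in KPCML1 (adjusted p = 0.0434), -0.59 ± 0.21 in KPC (adjusted p = 0.048), -1.73 ± 0.21 in C26 (adjusted p = 0.000205) and -1.20 ± 0.21 in KPP (adjusted p = 0.000766). The Pkm call was lost in KPCML1 without any 1 of that comparison's 4 libraries, with log2 fold changes from -0.91 to -0.59. It was lost in KPC without any 1 of that comparison's 4 libraries, with log2 fold changes from -0.77 to -0.43. Both calls were also lost in some fits without a library of another comparison. The KPC call of Pkm was lost under several other settings too (RLE size factors, adjusted p = 0.0626; mitochondrially encoded genes removed, 0.0516; no filter, 0.0896; length-scaled counts, 0.0562; each experiment fitted alone, 0.0636), and the KPCML1 call with each experiment fitted alone (edgeR adjusted p = 0.0826).

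**Figure D3:**
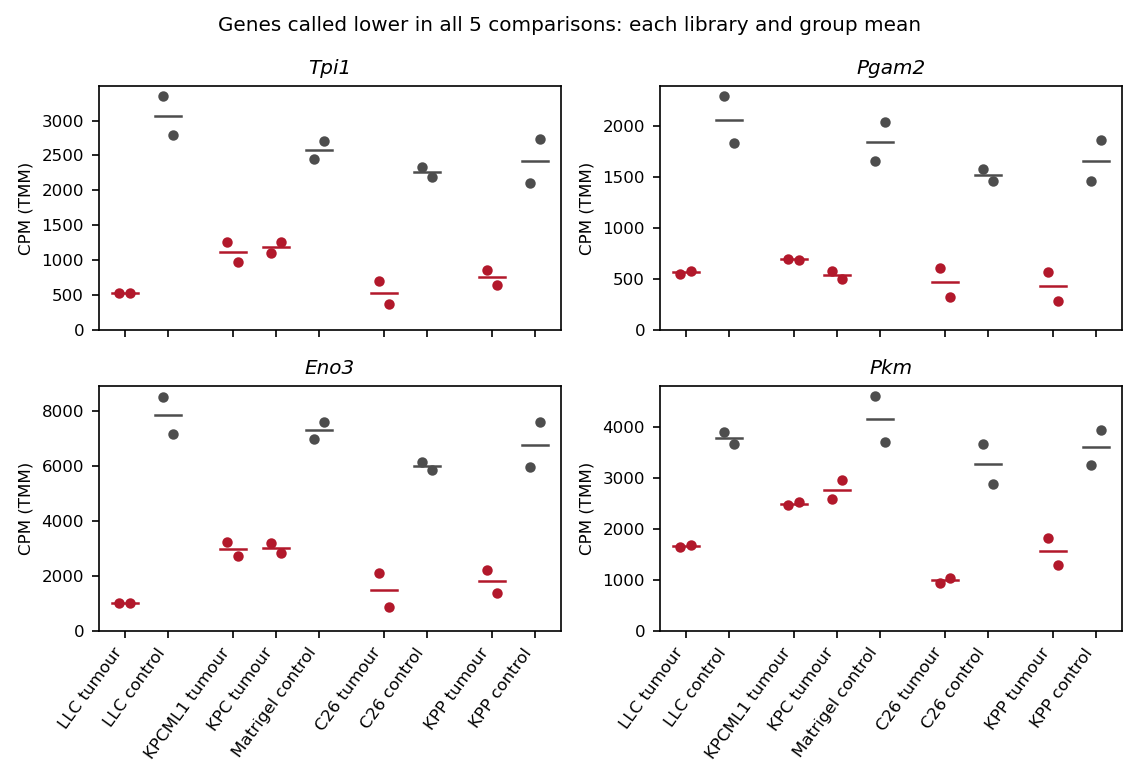
CPM of Tpi1, Pgam2, Eno3 and Pkm in each library (points) with the mean of the 2 libraries (lines), tumour groups in red beside their controls in grey. For each of these genes both tumour libraries lay below both controls in all 5 comparisons; for Tpi1 the LLC tumour libraries had 540.0 and 535 CPM, against 3345 and 2795 CPM in LLC controls.

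Gapdh and Pgk1 act between Tpi1 and Pgam2, and Pgk1 makes the first ATP of the pathway. Pgk1 fell in 4 models and Gapdh in 2. Pgk1 had 437 and 379 CPM in the LLC tumour libraries, against 1282 and 972 CPM in LLC controls. For Pgk1, the KPCML1 libraries had 651 and 654 CPM and the KPC libraries 548 and 694 CPM, against 1011 and 972 CPM in Matrigel controls. The Pgk1 values were 513 and 360.3 CPM in C26 tumour libraries, against 785 and 769.8 CPM in C26 controls, and 442 and 462 CPM in KPP tumour libraries, against 765 and 951 CPM in KPP controls. For Pgk1, both tumour libraries lay below both controls in all 5 comparisons. The Pgk1 log2 fold change by edgeR was -1.47 ± 0.21 in LLC (adjusted p = 0.000753), -0.68 ± 0.21 in KPC (adjusted p = 0.0249), -0.83 ± 0.21 in C26 (adjusted p = 0.0117) and -0.92 ± 0.21 in KPP (adjusted p = 0.00364). Pgk1 did not pass the test in KPCML1, with a log2 fold change of -0.60 (edgeR adjusted p = 0.0841). The Pgk1 call was lost in KPC without Matrigel control replicate 1 or 2 or KPC tumour replicate 1 (edgeR adjusted p = 0.0778 to 0.198) and in C26 without C26 control replicate 1 or 2 or C26 tumour replicate 2 (edgeR adjusted p = 0.0565 to 0.143).

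Gapdh had 4622 and 3704 CPM in the LLC tumour libraries, against 9180.1 and 8390.4 CPM in LLC controls. For Gapdh, the KPCML1 libraries had 7043 and 6916 CPM and the KPC libraries 8539 and 7807 CPM, against 9140.3 and 8636 CPM in Matrigel controls. The Gapdh values were 2394 and 1356 CPM in C26 tumour libraries, against 3112 and 3202 CPM in C26 controls, and 8292 and 7550.0 CPM in KPP tumour libraries, against 6975 and 9795 CPM in KPP controls. For Gapdh, both tumour libraries lay below both controls in LLC, KPCML1, KPC and C26 and the groups overlapped in KPP. Gapdh is often used to scale measurements between samples. The Gapdh log2 fold change by edgeR was -1.08 ± 0.25 in LLC (adjusted p = 0.0122) and -0.75 ± 0.25 in C26 (adjusted p = 0.045). Gapdh did not pass the test in KPCML1, KPC and KPP, with log2 fold changes of -0.35, -0.12 and -0.08 (edgeR adjusted p = 0.422 to 0.822). The Gapdh call was lost in LLC without LLC control replicate 1 or LLC tumour replicate 2 (edgeR adjusted p = 0.0949 to 0.149) and in C26 without C26 control replicate 1 or 2 or C26 tumour replicate 2 (edgeR adjusted p = 0.123 to 0.357). Gapdh is uncertain in C26: an intron-retaining Gapdh transcript held 49.0 to 53.2% of the TPM of the gene in tumour and control libraries of that experiment alike, and 0.664 to 1.86% in every other library. C26 is also the only experiment in CD2F1 mice, and the Gapdh level of its controls, above, lay below that of all other controls. The part of this in the C26 call was not tested.

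Pgam1 and Eno1 are the forms of the same enzymes in most other tissues. Pgam1 had 9.35 and 16.7 CPM in the LLC tumour libraries, against 14.1 and 12.1 CPM in LLC controls. For Pgam1, the KPCML1 libraries had 9.41 and 11.1 CPM and the KPC libraries 6.89 and 8.49 CPM, against 11.7 and 14.0 CPM in Matrigel controls. The Pgam1 values were 13.6 and 15.7 CPM in C26 tumour libraries, against 18.9 and 16.9 CPM in C26 controls, and 7.68 and 9.15 CPM in KPP tumour libraries, against 16.4 and 11.9 CPM in KPP controls. For Pgam1, both tumour libraries lay below both controls in KPCML1, KPC, C26 and KPP and the groups overlapped in LLC. The Pgam1 log2 fold change by edgeR was -0.74 ± 0.26 in KPC (adjusted p = 0.0444) and -0.75 ± 0.26 in KPP (adjusted p = 0.0343). Pgam1 did not pass the test in LLC, KPCML1 and C26, with log2 fold changes of -0.01, -0.33 and -0.29 (edgeR adjusted p = 0.458 to 0.994). The Pgam1 call was lost in KPC without any 1 of that comparison's 4 libraries (edgeR adjusted p = 0.0676 to 0.247) and in KPP without KPP control replicate 1 or KPP tumour replicate 1 or 2 (edgeR adjusted p = 0.0853 to 0.272). Its KPC call was also lost with RLE size factors (edgeR adjusted p = 0.0542).

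Eno1 had 29.6 and 42.3 CPM in the LLC tumour libraries, against 67.1 and 56.7 CPM in LLC controls. For Eno1, the KPCML1 libraries had 53.7 and 51.4 CPM and the KPC libraries 56.6 and 50.9 CPM, against 62.7 and 61.4 CPM in Matrigel controls. The Eno1 values were 22.8 and 19.6 CPM in C26 tumour libraries, against 35.6 and 29.9 CPM in C26 controls, and 59.3 and 77.8 CPM in KPP tumour libraries, against 54.9 and 62.3 CPM in KPP controls. For Eno1, both tumour libraries lay below both controls in LLC, KPCML1, KPC and C26 and the groups overlapped in KPP. The Eno1 log2 fold change by edgeR was -0.78 ± 0.19 in LLC (adjusted p = 0.0167) and -0.63 ± 0.19 in C26 (adjusted p = 0.0341). Eno1 did not pass the test in KPCML1, KPC and KPP, with log2 fold changes of -0.24, -0.21 and 0.23 (edgeR adjusted p = 0.371 to 0.485). The Eno1 call was lost in LLC without LLC control replicate 1 or LLC tumour replicate 1 (edgeR adjusted p = 0.147 to 0.179) and in C26 without C26 control replicate 1 or 2 or C26 tumour replicate 2 (edgeR adjusted p = 0.0634 to 0.25). Eno1 is uncertain, because the near-identical gene copy Eno1b took up to 83.9% as many fragments as Eno1 in the C26 experiment, the only one in CD2F1 mice, and as little as 0.115% elsewhere. Adding the copy back changed no call of the 37 genes.

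Aldoa, which splits fructose 1,6-bisphosphate, was called in no comparison, with log2 fold changes from -0.41 to 0.14. It had 10534 to 21387 CPM in tumour libraries, against 14902 to 20031 CPM in controls. Aldoc, the brain form, held at most 0.531 CPM and was called nowhere.

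Lactate dehydrogenase turns pyruvate to lactate, and its Ldha subunit predominates in fast muscle. Ldha had 653 and 559 CPM in the LLC tumour libraries, against 3231 and 3124 CPM in LLC controls. For Ldha, the KPCML1 libraries had 1577 and 1574 CPM and the KPC libraries 1666 and 1514 CPM, against 2873 and 2838 CPM in Matrigel controls. The Ldha values were 1263 and 446 CPM in C26 tumour libraries, against 2282 and 2266 CPM in C26 controls, and 952 and 874 CPM in KPP tumour libraries, against 2386 and 3073 CPM in KPP controls. For Ldha, both tumour libraries lay below both controls in all 5 comparisons. The Ldha log2 fold change by edgeR was -2.39 ± 0.34 in LLC (adjusted p = 0.00075), -1.41 ± 0.33 in C26 (adjusted p = 0.00861) and -1.58 ± 0.33 in KPP (adjusted p = 0.00247). Ldha did not pass the test in KPCML1 and KPC, with log2 fold changes of -0.86 and -0.84 (edgeR adjusted p = 0.0651 to 0.119). Ldhb, the subunit of heart and oxidative fibres, was called in no comparison, with 74.4 to 171 CPM in tumour libraries, against 50.6 to 188 CPM in controls.

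The list of fast myofibre markers, 13 genes such as Myh4 and Pvalb, moved with these falls in part: 0 rose and 3 fell in LLC, 0 rose and 2 fell in KPCML1, 1 rose and 2 fell in KPC, 0 rose and 5 fell in C26 and 2 rose and 4 fell in KPP. Its median log2 fold change was -0.55 in LLC, -0.07 in KPCML1, 0.15 in KPC, -0.41 in C26 and -0.62 in KPP. Its summed level was 127712 to 130584 CPM in LLC tumour libraries, against 142050.0 to 149384 CPM in LLC controls, 160433 to 175519 CPM in KPCML1 and 183495 to 193423 CPM in KPC libraries, against 143078 to 167350.0 CPM in Matrigel controls. It was 85631 to 142062 CPM in C26 tumour libraries, against 127064 to 143799 CPM in C26 controls, and 162662 to 163839 CPM in KPP tumour libraries, against 135108 to 171208 CPM in KPP controls. No marker of this list was at 0 in any library. Of the 10 slow myofibre markers, 1 rose and 0 fell in LLC, 0 rose and 0 fell in KPCML1, 4 rose and 0 fell in KPC, 1 rose and 1 fell in C26 and 1 rose and 1 fell in KPP. Their median log2 fold change was -0.03 in LLC, 0.71 in KPCML1, 1.41 in KPC, 0.77 in C26 and 0.89 in KPP, and their summed level 115 to 384 CPM over all libraries. The part of a change of fibre type in the falls of glycolytic genes was not tested.

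Ratios within a library do not depend on how libraries are scaled. Set against the other form or forms of the same step, the muscle or fast-fibre form was lower in tumour-bearing muscle for 6 of 9 gene families. The test was an exact permutation of the tumour and control labels within the 4 experiments, two-sided, over 3240 arrangements, with adjusted p over 10 ratios, 1 of them the Pkm transcripts; 0.000309 is the smallest p it can give. The mean log2 change of the ratio was -1.72 for Eno3 over Eno1, -1.46 for Ldha over Ldhb, -1.44 for Pgam2 over Pgam1 and -1.24 for Slc2a4 over Slc2a1 (each exact permutation p = 0.000309, adjusted p = 0.000772). For Slc16a3 over Slc16a1 it was -1.78 (exact permutation p = 0.00185, adjusted p = 0.00309), and for Pfkm over Pfkl and Pfkp -1.16 (exact permutation p = 0.000617, adjusted p = 0.00123). All 5 model means were negative for each of these 6 ratios, though that of the transporters Slc16a3 over Slc16a1 was only -0.07 in KPC. Members of a ratio were also tested singly above, so the ratios restate those values on a scale free of library size.

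The shares behind these ratios differed in size. Ldha made up 69.2 to 94.4% of its family in tumour libraries (median 87.8%) and 90.6 to 97.8% in controls (median 94.5%). Slc16a3 made up 53.3 to 96.3% of its family in tumour libraries (median 83.8%) and 92.0 to 96.7% in controls (median 94.2%). Eno3 made up 94.4 to 98.5% of its family in tumour libraries (median 97.8%) and 99.1 to 99.3% in controls (median 99.2%), a count that depends on Eno1b as above; with the copy added to Eno1 the enolase ratio changed by -1.73 (exact permutation, adjusted p = 0.000772). Pgam2 and Pfkm stayed above 98% of their families in every library.

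The ratios of Hk2 over Hk1, Aldoa over Aldoc and Pygm over Pygb and Pygl did not pass. They changed by -0.53 (exact permutation p = 0.0515, adjusted p = 0.0736), 0.07 (p = 0.89, adjusted p = 0.89) and 0.05 (p = 0.889, adjusted p = 0.89). With 1 TPM added to each form the hexokinase ratio passed (exact permutation, adjusted p = 0.0459).

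**Figure D4:**
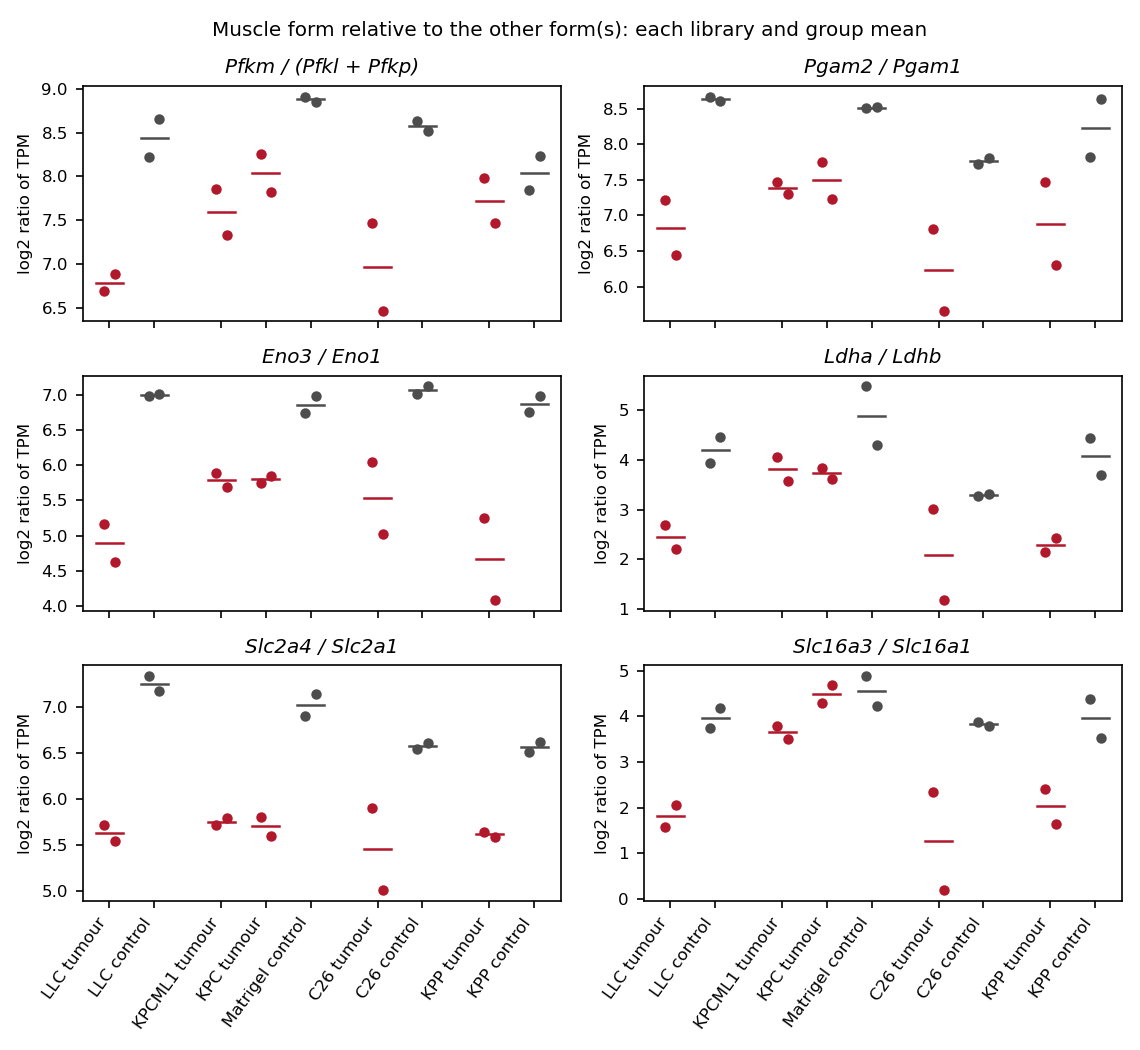
Log2 ratio of TPM of the muscle or fast-fibre form over the other form or forms in each library (points) with the mean of the 2 libraries (lines), tumour groups in red beside their controls in grey, for the 6 families whose ratio was lower in tumour-bearing muscle. Eno3 over Eno1 fell by 2.10 on the log2 scale in LLC and by 1.06 in KPC.

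Pkm makes the PKM1 form, typical of adult muscle, or the PKM2 form, typical of proliferating and many other cells, by choosing 1 of 2 neighbouring exons. The exons are printed because the share of the 2 forms turns on them. They are from GENCODE M21 (mm10, plus strand), 167 bases each, with capitals where the 2 differ; they are identical at 61.7% of positions.
Pkm-202, exon 9, PKM1-type, chr9:59675029-59675195: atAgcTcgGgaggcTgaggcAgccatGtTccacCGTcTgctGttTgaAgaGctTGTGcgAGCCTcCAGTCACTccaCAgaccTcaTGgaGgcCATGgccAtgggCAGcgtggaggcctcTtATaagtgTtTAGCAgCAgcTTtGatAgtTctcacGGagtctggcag
Pkm-201, exon 9, PKM2-type, chr9:59675568-59675734: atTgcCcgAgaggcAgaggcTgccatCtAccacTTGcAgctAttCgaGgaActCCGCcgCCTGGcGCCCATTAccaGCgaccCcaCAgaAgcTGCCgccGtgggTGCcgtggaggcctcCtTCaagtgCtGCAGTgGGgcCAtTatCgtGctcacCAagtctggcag

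Pkm-202 and Pkm-201 carried most of the TPM of the gene. Pkm-201 had 29.0 and 32.8% in the LLC tumour libraries, against 30.1 and 28.9% in LLC controls. For Pkm-201, the KPCML1 libraries had 31.8 and 39.2% and the KPC libraries 27.8 and 27.1%, against 27.5 and 28.6% in Matrigel controls. The Pkm-201 values were 29.8 and 34.0% in C26 tumour libraries, against 29.0 and 28.0% in C26 controls, and 37.6 and 27.7% in KPP tumour libraries, against 28.9 and 30.4% in KPP controls. These are shares of all Pkm TPM. The highest shares were in KPCML1 tumour replicate 2 and KPP tumour replicate 1, and the KPC libraries did not stand above their controls. The log2 ratio of Pkm-201 over Pkm-202 was 0.19 higher in tumour-bearing muscle (exact permutation p = 0.0867, adjusted p = 0.108). Without KPP tumour replicate 2 it was 0.26 higher (adjusted p = 0.03). Pkm-201 is also longer at both ends, so the estimated shares draw on reads from the ends as well as from these exons. In edgeR's test of transcript usage, 0.0681% of 38174 transcripts were called in LLC, 0.0629% in KPCML1, 0.181% in KPC, 0.126% in C26 and 0.301% in KPP. Among 172 transcripts of the members, 2 were called in LLC (Pygm-202 higher and the intron-retaining Aldoa-208 lower), 1 in KPCML1 (Gapdh-201 higher), 2 in KPC (Aldoa-208 higher and a Phkg1 transcript annotated without a coding sequence lower), 1 in C26 (a coding Eno3 transcript higher) and 3 in KPP (Aldoa-202 higher, Aldoa-208 and another intron-retaining Aldoa transcript lower). Some changes against the rest of the gene were very large on the log2 scale. They were -10.1, 9.63 and -11.1 for Aldoa-208 in LLC, KPC and KPP, 12.5 for Gapdh-201 in KPCML1 and 11.8 for Pygm-202 in LLC. The levels behind them are not given here, and error in assigning reads among overlapping transcripts was not measured. Of the 50 tests of 10 Pkm transcripts none passed; the smallest adjusted p was 0.821 and 1 unadjusted p was under 0.05.

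Within 2 members, transcripts that start at different first exons changed their share. In a scan of 24919 transcripts of 8315 genes, added after the data had been seen, 0.783% passed the exact permutation test within experiments and 0.373% had no overlap between the 10 tumour and 8 control libraries. Of 68 transcripts of 25 members in the scan, 4 passed, all without overlap, and they are 2 of Aldoa and 2 of Pfkm. Aldoa-203 and Aldoa-201 use the same start codon and differ in their first exon and by 1 base at the end. Pfkm-205 and Pfkm-201 also share a start codon, and differ in the first exon, in where exon 2 begins and in where the last exon ends. The 4 promoter windows printed are those nearest the starts of these transcripts, whose estimated shares changed. Each runs from 250 bases before to 50 after the start that RefSeq gives (build GRCm38.p6), with capitals at the letters CACGTG or ACGTG on either strand. In GENCODE, Pfkm-205 itself starts at chr15:98092644, just past the end of its window, so that window does not hold its start.
Aldoa, start used by Aldoa-203, chr7:126800398-126800697, minus strand: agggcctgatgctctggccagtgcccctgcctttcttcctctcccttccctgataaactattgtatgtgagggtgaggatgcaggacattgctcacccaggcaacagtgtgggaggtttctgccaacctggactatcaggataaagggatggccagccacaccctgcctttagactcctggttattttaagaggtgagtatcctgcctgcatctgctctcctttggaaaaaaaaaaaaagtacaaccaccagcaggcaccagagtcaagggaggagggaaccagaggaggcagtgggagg
Aldoa, start used by Aldoa-201, chr7:126799205-126799504, minus strand: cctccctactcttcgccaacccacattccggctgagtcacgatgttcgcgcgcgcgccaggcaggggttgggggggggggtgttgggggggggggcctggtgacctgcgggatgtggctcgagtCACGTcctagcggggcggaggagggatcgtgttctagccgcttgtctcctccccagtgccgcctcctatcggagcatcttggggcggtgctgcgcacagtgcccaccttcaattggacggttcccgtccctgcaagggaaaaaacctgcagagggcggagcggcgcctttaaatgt
Pfkm, start nearest Pfkm-205, chr15:98092339-98092638, plus strand: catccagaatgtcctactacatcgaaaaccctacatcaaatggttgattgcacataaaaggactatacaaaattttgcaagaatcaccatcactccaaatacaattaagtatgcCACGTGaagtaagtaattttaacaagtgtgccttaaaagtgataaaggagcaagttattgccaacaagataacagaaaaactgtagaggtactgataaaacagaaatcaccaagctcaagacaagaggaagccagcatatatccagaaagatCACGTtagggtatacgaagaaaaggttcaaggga
Pfkm, start nearest Pfkm-201, chr15:98108221-98108520, plus strand: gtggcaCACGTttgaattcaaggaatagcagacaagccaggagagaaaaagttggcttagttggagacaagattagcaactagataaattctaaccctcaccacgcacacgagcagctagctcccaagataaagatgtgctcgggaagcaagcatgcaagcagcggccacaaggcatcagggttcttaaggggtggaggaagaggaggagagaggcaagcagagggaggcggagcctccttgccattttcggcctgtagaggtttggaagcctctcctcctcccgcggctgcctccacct

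The windows differ in base composition. G and C made up 52.7% of the Aldoa-203 window and 65.7% of the Aldoa-201 window, and 36.7% of the Pfkm-205 window and 53.7% of the Pfkm-201 window. Short motifs, 6 in all, were searched on both strands in the 32851 windows of all genes: CACGTG was in 7.15% of them, ACGTG, which CACGTG contains, in 19.6%, CAGCTG in 16.3%, AAGGTCA in 4.72%, GTAAACA in 3.65% and TATAAA in 13.6%. Of the 54 windows of 36 members with an entry, CACGTG was in 14.8%, ACGTG in 44.4%, CAGCTG in 27.8%, AAGGTCA in 5.56%, GTAAACA in 1.85% and TATAAA in 5.56%. No test was made of these shares. Such a match describes letters only.

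Aldoa-201 had 18.9 and 20.4% in the LLC tumour libraries, against 11.6 and 11.4% in LLC controls. For Aldoa-201, the KPCML1 libraries had 16.3 and 17.6% and the KPC libraries 16.2 and 17.4%, against 10.6 and 10.3% in Matrigel controls. The Aldoa-201 values were 18.7 and 27.8% in C26 tumour libraries, against 11.3 and 12.5% in C26 controls, and 20.6 and 23.9% in KPP tumour libraries, against 12.8 and 13.4% in KPP controls. The Aldoa-201 share was higher in each tumour library than in any control. It rose by 8.78 percentage points (exact permutation p = 0.000309, adjusted p = 0.0394 over all transcripts of the scan). Aldoa-203 had 34.1 and 29.2% in the LLC tumour libraries, against 41.4 and 39.9% in LLC controls. For Aldoa-203, the KPCML1 libraries had 31.7 and 31.2% and the KPC libraries 33.9 and 31.9%, against 39.8 and 39.5% in Matrigel controls. The Aldoa-203 values were 31.0 and 22.5% in C26 tumour libraries, against 36.1 and 38.4% in C26 controls, and 33.3 and 23.8% in KPP tumour libraries, against 37.8 and 40.4% in KPP controls. That of Aldoa-203 fell by 9.38 points (exact permutation p = 0.000309, adjusted p = 0.0394), and each tumour library lay below each control. Aldoa-210, a shorter transcript with another first exon, held 45.3 to 51.2% in tumour libraries and 45.6 to 51.6% in controls.

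Pfkm-201 had 38.8 and 37.3% in the LLC tumour libraries, against 19.3 and 25.9% in LLC controls. For Pfkm-201, the KPCML1 libraries had 26.8 and 29.9% and the KPC libraries 30.5 and 30.5%, against 22.1 and 23.8% in Matrigel controls. The Pfkm-201 values were 36.8 and 51.1% in C26 tumour libraries, against 23.1 and 22.8% in C26 controls, and 36.1 and 43.2% in KPP tumour libraries, against 23.4 and 20.8% in KPP controls. The Pfkm-201 share rose by 15.1 points (exact permutation p = 0.000309, adjusted p = 0.0394), most in C26 and least in KPCML1. Its level did not rise with its share: the log2 fold change of Pfkm-201 counts was -0.39 in LLC, -0.41 in KPCML1, -0.36 in KPC, -0.89 in C26 and -0.61 in KPP, against -1.46, -0.82, -0.92, -2.18 and -1.76 for Pfkm-205 in the same order. In TPM, Pfkm-201 stood at 191 and 169 in KPP tumour libraries, against 287.8 and 201.2 in KPP controls, and at 227 and 316 in LLC tumour libraries, against 198 and 287 in LLC controls. For Aldoa-201 the log2 fold change of its counts was 0.32 in LLC, 0.72 in KPCML1, 0.69 in KPC, 0.70 in C26 and 0.79 in KPP. Pfkm-205 had 59.5 and 61.4% in the LLC tumour libraries, against 78.7 and 72.8% in LLC controls. For Pfkm-205, the KPCML1 libraries had 72.3 and 68.6% and the KPC libraries 69.0 and 69.0%, against 77.5 and 75.1% in Matrigel controls. The Pfkm-205 values were 62.2 and 45.4% in C26 tumour libraries, against 75.5 and 76.2% in C26 controls, and 63.9 and 56.3% in KPP tumour libraries, against 75.5 and 78.4% in KPP controls. The Pfkm-205 share fell by 15.2 points (exact permutation p = 0.000309, adjusted p = 0.0394). The ranges of tumour and control libraries met closely for Pfkm-205, at a highest tumour share of 72.3% in KPCML1 and a lowest control share of 72.8% in LLC.

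These shares have limits. With any 1 library left out, or with a replicate block, none of the 4 transcripts passed (exact permutation, adjusted p = 0.0506 to 0.0898 with 1 library left out, and 0.23 with the block); each then still had a change of the same sign, and the smallest p such a test can give is larger. The edgeR usage test within single comparisons called none of the 4 (adjusted p = 0.598 to 1); its smallest unadjusted p was 0.0112, for Aldoa-201 in C26.

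**Figure D5:**
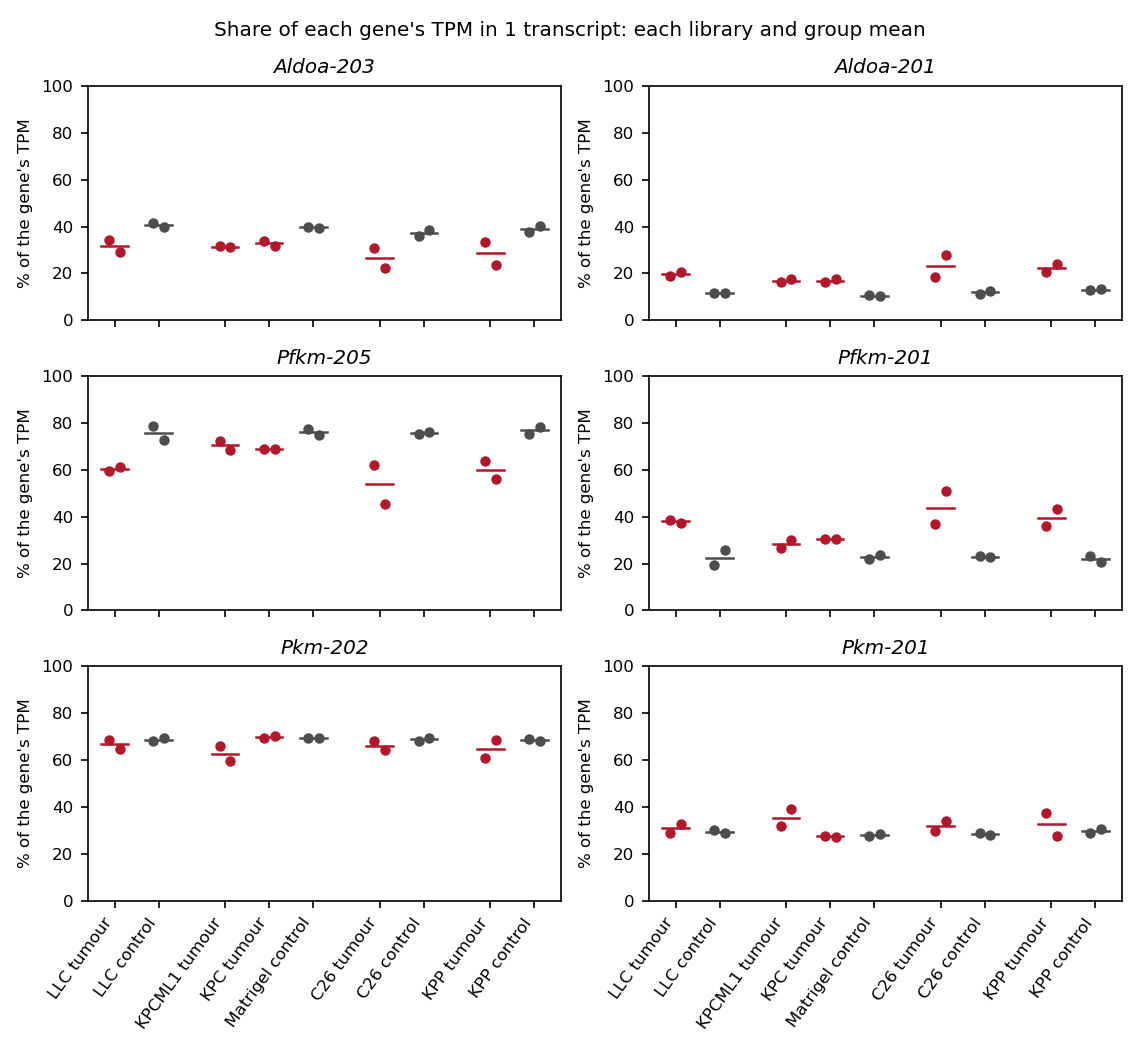
Percent of a gene's TPM held by 1 transcript in each library (points) with the mean of the 2 libraries (lines), tumour groups in red beside their controls in grey. Aldoa-201 and Pfkm-201 were higher and Aldoa-203 and Pfkm-205 lower in all 10 tumour libraries than in all 8 controls, while the shares of Pkm-201 and Pkm-202 overlapped.

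By edgeR here, of the 10 glycogen genes, none was called in LLC, 1 rose in KPCML1, 3 rose in KPC, 2 rose and 4 fell in C26, and 2 rose and 3 fell in KPP. Among all genes tested, 13.6% were called in LLC, 8.53% in KPCML1, 29.1% in KPC, 21.3% in C26 and 36.7% in KPP. The glycogen counts in KPCML1 and KPC lay near these shares. The authors' deposited table for LLC did call Phka1, Phkg1, Phkb, Pygm and Gys1 lower and Gbe1 higher. Phosphorylase Pygm and glycogen synthase Gys1, the enzymes that shorten and lengthen the chains, were called in no comparison here. Pygm had 2788 and 3083 CPM in the LLC tumour libraries, against 3780.3 and 3782 CPM in LLC controls. For Pygm, the KPCML1 libraries had 5541 and 4834 CPM and the KPC libraries 5632 and 7052 CPM, against 6316 and 4436 CPM in Matrigel controls. The Pygm values were 4411 and 1649.9 CPM in C26 tumour libraries, against 5289 and 4085 CPM in C26 controls, and 3690.2 and 2985 CPM in KPP tumour libraries, against 4405 and 5664 CPM in KPP controls. For Pygm, both tumour libraries lay below both controls in LLC and KPP and the groups overlapped in KPCML1, KPC and C26. Pygm did not pass the test in LLC, KPCML1, KPC, C26 and KPP, with log2 fold changes of -0.37, -0.05, 0.24, -0.63 and -0.59 (edgeR adjusted p = 0.193 to 0.956). Gys1 had 156 and 244 CPM in the LLC tumour libraries, against 303 and 330.2 CPM in LLC controls. For Gys1, the KPCML1 libraries had 286 and 310.0 CPM and the KPC libraries 319.5 and 343 CPM, against 394 and 409 CPM in Matrigel controls. The Gys1 values were 311 and 260.4 CPM in C26 tumour libraries, against 437 and 326 CPM in C26 controls, and 352 and 288 CPM in KPP tumour libraries, against 324 and 322 CPM in KPP controls. For Gys1, both tumour libraries lay below both controls in LLC, KPCML1, KPC and C26 and the groups overlapped in KPP. Gys1 did not pass the test in LLC, KPCML1, KPC, C26 and KPP, with log2 fold changes of -0.66, -0.43, -0.28, -0.42 and -0.01 (edgeR adjusted p = 0.0517 to 0.97). Gys1 was called lower in LLC by DESeq2 (adjusted p = 0.0199), with upper-quartile scaling (edgeR adjusted p = 0.0294) and with each experiment fitted alone (edgeR adjusted p = 0.0439).

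Phosphorylase kinase activates Pygm, and its muscle subunits were called lower here in C26 and KPP. Phka1 is the regulatory subunit of muscle, Phkg1 the catalytic one and Phkb a subunit shared with other tissues. The authors' deposited tables also called Phka1, Phkg1 and Phkb lower in LLC and Phkg1 lower in KPC. Phka1 had 438 and 324 CPM in the LLC tumour libraries, against 771 and 671 CPM in LLC controls. For Phka1, the KPCML1 libraries had 579 and 319.6 CPM and the KPC libraries 458 and 584 CPM, against 918 and 701 CPM in Matrigel controls. The Phka1 values were 125 and 75.3 CPM in C26 tumour libraries, against 531 and 435 CPM in C26 controls, and 107 and 163 CPM in KPP tumour libraries, against 645 and 633 CPM in KPP controls. For Phka1, both tumour libraries lay below both controls in all 5 comparisons. The Phka1 log2 fold change by edgeR was -2.27 ± 0.32 in C26 (adjusted p = 0.000513) and -2.24 ± 0.32 in KPP (adjusted p = 0.000234). Phka1 did not pass the test in LLC, KPCML1 and KPC, with log2 fold changes of -0.92, -0.85 and -0.63 (edgeR adjusted p = 0.0652 to 0.137).

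Phkg1 had 289.6 and 236 CPM in the LLC tumour libraries, against 529 and 463 CPM in LLC controls. For Phkg1, the KPCML1 libraries had 339 and 290.4 CPM and the KPC libraries 235 and 261 CPM, against 505 and 468 CPM in Matrigel controls. The Phkg1 values were 137 and 45.3 CPM in C26 tumour libraries, against 363 and 345 CPM in C26 controls, and 106 and 68.4 CPM in KPP tumour libraries, against 438 and 497 CPM in KPP controls. For Phkg1, both tumour libraries lay below both controls in all 5 comparisons. The Phkg1 log2 fold change by edgeR was -1.96 ± 0.37 in C26 (adjusted p = 0.00249) and -2.43 ± 0.37 in KPP (adjusted p = 0.000344). Phkg1 did not pass the test in LLC, KPCML1 and KPC, with log2 fold changes of -0.92, -0.63 and -0.97 (edgeR adjusted p = 0.0534 to 0.298).

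Phkb had 323 and 269 CPM in the LLC tumour libraries, against 381 and 404 CPM in LLC controls. For Phkb, the KPCML1 libraries had 372 and 268 CPM and the KPC libraries 368 and 419 CPM, against 477 and 373 CPM in Matrigel controls. The Phkb values were 221 and 111 CPM in C26 tumour libraries, against 373 and 358 CPM in C26 controls, and 179 and 146 CPM in KPP tumour libraries, against 337 and 397 CPM in KPP controls. For Phkb, both tumour libraries lay below both controls in LLC, KPCML1, C26 and KPP and the groups overlapped in KPC. The Phkb log2 fold change by edgeR was -1.14 ± 0.27 in C26 (adjusted p = 0.00972) and -1.18 ± 0.27 in KPP (adjusted p = 0.00454). Phkb did not pass the test in LLC, KPCML1 and KPC, with log2 fold changes of -0.41, -0.41 and -0.11 (edgeR adjusted p = 0.359 to 0.791). The Phkb call was lost in C26 without C26 control replicate 1 or C26 tumour replicate 2 (edgeR adjusted p = 0.0545 to 0.113) and in KPP without KPP tumour replicate 2 (edgeR adjusted p = 0.0516).

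Ppp1r3c, a glycogen-targeting subunit of protein phosphatase 1, rose in KPCML1, KPC and C26. Ppp1r3c had 222 and 255 CPM in the LLC tumour libraries, against 204 and 251 CPM in LLC controls. For Ppp1r3c, the KPCML1 libraries had 796 and 1422 CPM and the KPC libraries 1039 and 749 CPM, against 282 and 168 CPM in Matrigel controls. The Ppp1r3c values were 598 and 493 CPM in C26 tumour libraries, against 128 and 101 CPM in C26 controls, and 456 and 299 CPM in KPP tumour libraries, against 301 and 149.5 CPM in KPP controls. For Ppp1r3c, both tumour libraries lay above both controls in KPCML1, KPC and C26 and the groups overlapped in LLC and KPP. The Ppp1r3c log2 fold change by edgeR was 2.30 ± 0.38 in KPCML1 (adjusted p = 0.00351), 1.99 ± 0.37 in KPC (adjusted p = 0.00199) and 2.25 ± 0.38 in C26 (adjusted p = 0.00131). Ppp1r3c did not pass the test in LLC and KPP, with log2 fold changes of 0.07 and 0.74 (edgeR adjusted p = 0.121 to 0.936). The Ppp1r3c call was lost in KPCML1 without Matrigel control replicate 2 or KPCML1 tumour replicate 2 (edgeR adjusted p = 0.0533 to 0.0641). Ppp1r3a, the targeting subunit of the sarcoplasmic reticulum, was called lower in C26 only, at 218 and 105 CPM in C26 tumour libraries, against 293 and 331 CPM in C26 controls. Its log2 fold change there was -0.95 ± 0.32 (edgeR adjusted p = 0.0495), and the call was lost in C26 without C26 control replicate 1 or 2 or C26 tumour replicate 2 (edgeR adjusted p = 0.111 to 0.42). The call was also lost with each experiment fitted alone (edgeR adjusted p = 0.0849).

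Glycogenin Gyg primes new glycogen particles and Gbe1 adds branches. Gyg had 398 and 302 CPM in the LLC tumour libraries, against 264 and 252 CPM in LLC controls. For Gyg, the KPCML1 libraries had 338 and 485 CPM and the KPC libraries 639.5 and 325 CPM, against 279 and 263 CPM in Matrigel controls. The Gyg values were 427 and 293 CPM in C26 tumour libraries, against 224 and 258 CPM in C26 controls, and 674 and 711 CPM in KPP tumour libraries, against 237 and 332 CPM in KPP controls. For Gyg, both tumour libraries lay above both controls in all 5 comparisons. The Gyg log2 fold change by edgeR was 0.83 ± 0.29 in KPC (adjusted p = 0.0476) and 1.28 ± 0.30 in KPP (adjusted p = 0.00455). Gyg did not pass the test in LLC, KPCML1 and C26, with log2 fold changes of 0.44, 0.60 and 0.58 (edgeR adjusted p = 0.181 to 0.363). The Gyg call was lost in KPC without Matrigel control replicate 1 or 2 or KPC tumour replicate 1 (edgeR adjusted p = 0.152 to 0.435) and in KPP without KPP control replicate 1 (edgeR adjusted p = 0.0604). The KPC call of Gyg was lost with upper-quartile scaling (edgeR adjusted p = 0.117) and length-scaled counts (edgeR adjusted p = 0.0548) too.

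Gbe1 had 132 and 123 CPM in the LLC tumour libraries, against 77.0 and 92.3 CPM in LLC controls. For Gbe1, the KPCML1 libraries had 99.9 and 113 CPM and the KPC libraries 169 and 175 CPM, against 72.0 and 116 CPM in Matrigel controls. The Gbe1 values were 81.9 and 108 CPM in C26 tumour libraries, against 78.4 and 77.7 CPM in C26 controls, and 166 and 144 CPM in KPP tumour libraries, against 62.4 and 84.9 CPM in KPP controls. For Gbe1, both tumour libraries lay above both controls in LLC, KPC, C26 and KPP and the groups overlapped in KPCML1. The Gbe1 log2 fold change by edgeR was 0.87 ± 0.22 in KPC (adjusted p = 0.0109) and 1.07 ± 0.22 in KPP (adjusted p = 0.00244). Gbe1 did not pass the test in LLC, KPCML1 and C26, with log2 fold changes of 0.60, 0.18 and 0.28 (edgeR adjusted p = 0.0942 to 0.681). The Gbe1 call was lost in KPC without Matrigel control replicate 1 or KPC tumour replicate 2 (edgeR adjusted p = 0.0707 to 0.151). Ugp2, which makes the UDP-glucose that glycogen synthase uses, was called higher in C26, at 1382 and 991 CPM in C26 tumour libraries, against 592 and 701 CPM in C26 controls. Its log2 fold change there was 0.88 ± 0.28 (edgeR adjusted p = 0.0405), and the call was lost in C26 without any 1 of that comparison's 4 libraries (edgeR adjusted p = 0.0521 to 0.23). It was lost as well with upper-quartile scaling (edgeR adjusted p = 0.0768) and length-scaled counts (edgeR adjusted p = 0.0623).

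Of the transporters, Slc16a3 (MCT4), which exports lactate from fast fibres, fell in 4 models. Slc16a3 had 57.6 and 76.6 CPM in the LLC tumour libraries, against 375 and 394 CPM in LLC controls. For Slc16a3, the KPCML1 libraries had 162 and 173 CPM and the KPC libraries 334 and 346 CPM, against 449.5 and 464 CPM in Matrigel controls. The Slc16a3 values were 64.6 and 28.8 CPM in C26 tumour libraries, against 257 and 211 CPM in C26 controls, and 129 and 80.7 CPM in KPP tumour libraries, against 325 and 289 CPM in KPP controls. For Slc16a3, both tumour libraries lay below both controls in all 5 comparisons. The Slc16a3 log2 fold change by edgeR was -2.52 ± 0.31 in LLC (adjusted p = 0.00036), -1.45 ± 0.30 in KPCML1 (adjusted p = 0.0117), -2.33 ± 0.31 in C26 (adjusted p = 0.000358) and -1.55 ± 0.30 in KPP (adjusted p = 0.00164). Slc16a3 did not pass the test in KPC, with a log2 fold change of -0.43 (edgeR adjusted p = 0.299). The Slc16a3 call was lost in KPCML1 without any 1 of that comparison's 4 libraries (edgeR adjusted p = 0.052 to 0.124).

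Slc2a4 (GLUT4), the insulin-responsive glucose transporter of muscle, fell in LLC and KPCML1. Slc2a4 had 230.3 and 303 CPM in the LLC tumour libraries, against 456 and 428 CPM in LLC controls. For Slc2a4, the KPCML1 libraries had 308 and 284 CPM and the KPC libraries 408 and 326 CPM, against 495 and 534 CPM in Matrigel controls. The Slc2a4 values were 233 and 378 CPM in C26 tumour libraries, against 441 and 383 CPM in C26 controls, and 368 and 333 CPM in KPP tumour libraries, against 416 and 414 CPM in KPP controls. For Slc2a4, both tumour libraries lay below both controls in all 5 comparisons. The Slc2a4 log2 fold change by edgeR was -0.73 ± 0.22 in LLC (adjusted p = 0.0384) and -0.80 ± 0.22 in KPCML1 (adjusted p = 0.0379). Slc2a4 did not pass the test in KPC, C26 and KPP, with log2 fold changes of -0.49, -0.43 and -0.24 (edgeR adjusted p = 0.103 to 0.396). The Slc2a4 call was lost in LLC without any 1 of that comparison's 4 libraries (edgeR adjusted p = 0.0836 to 0.287) and in KPCML1 without any 1 of that comparison's 4 libraries (edgeR adjusted p = 0.107 to 0.283). With each experiment fitted alone its KPCML1 call was lost (edgeR adjusted p = 0.0564).

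Slc2a1 (GLUT1), the transporter of basal uptake, and Slc16a1 (MCT1), a lactate transporter of oxidative fibres, were called in no comparison. Slc2a1 had 4.64 to 13.8 CPM in tumour libraries, against 3.14 to 5.98 CPM in controls, with log2 fold changes from 0.36 to 0.94. Slc16a1 had 30.4 to 65.1 CPM in tumour libraries, against 39.5 to 69.0 CPM in controls.

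Some neutrophil markers were called higher in each model and none lower. Of the 12 tested of 13, 2 rose and 0 fell in LLC, 5 rose and 0 fell in KPCML1, 9 rose and 0 fell in KPC, 5 rose and 0 fell in C26 and 6 rose and 0 fell in KPP. Their summed level was 10.1 to 10.4 CPM in LLC tumour libraries, against 2.97 to 7.18 CPM in LLC controls, 25.6 to 47.5 CPM in KPCML1 and 93.1 to 106 CPM in KPC libraries, against 3.55 to 6.74 CPM in Matrigel controls. It was 63.9 to 142 CPM in C26 tumour libraries, against 3.53 to 3.60 CPM in C26 controls, and 42.1 to 121 CPM in KPP tumour libraries, against 5.19 to 6.08 CPM in KPP controls. Among these markers Ngp, Camp, Ltf, Retnlg and Mmp8 were at 0 in 1 to 12 libraries. The highest level in any library was 113 CPM for Lcn2, 46.4 CPM for S100a8 and 31.2 CPM for S100a9. Every other marker of this list reached at most 6.49 CPM, so the summed level rests on few genes. Of the 10 erythroid markers, 6 rose and 1 fell in LLC, 9 rose and 0 fell in KPCML1, 8 rose and 0 fell in KPC, 0 rose and 1 fell in C26 and 0 rose and 1 fell in KPP. Their summed level was 912 to 2657 CPM in LLC tumour libraries, against 403 to 491 CPM in LLC controls, 3048 to 6917 CPM in KPCML1 and 2154 to 2369.8 CPM in KPC libraries, against 455 to 500.1 CPM in Matrigel controls. It was 162 to 328 CPM in C26 tumour libraries, against 382 to 402 CPM in C26 controls, and 489 to 3249.6 CPM in KPP tumour libraries, against 505 to 998 CPM in KPP controls. The marker called lower in LLC, C26 and KPP was Bpgm, which is also counted below among the genes of other glycolytic steps. Epb42 was at 0 in 11 libraries. The part of neutrophil and erythroid cells in the rises of Gpi1, Pfkfb3, Pfkfb4 and Ppp1r3c was not tested.

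Fibro-adipogenic and tendon markers were called lower more often than higher in every model. Of the 12 macrophage markers, 0 rose and 0 fell in LLC, 4 rose and 0 fell in KPCML1, 1 rose and 1 fell in KPC, 0 rose and 0 fell in C26 and 1 rose and 1 fell in KPP. Of 9 tested adipocyte markers, a cell type that also holds Slc2a4, 2 rose and 0 fell in LLC, 6 rose and 0 fell in KPCML1, 5 rose and 0 fell in KPC, 1 rose and 5 fell in C26 and 1 rose and 7 fell in KPP. Of 10 endothelial markers, 1 rose and 0 fell in LLC, 1 rose and 0 fell in KPCML1, 1 rose and 0 fell in KPC, 0 rose and 0 fell in C26 and 0 rose and 8 fell in KPP. Of 10 fibro-adipogenic markers, 0 rose and 4 fell in LLC, 1 rose and 4 fell in KPCML1, 0 rose and 6 fell in KPC, 1 rose and 4 fell in C26 and 0 rose and 7 fell in KPP. Of 10 tendon markers, 0 rose and 2 fell in LLC, 0 rose and 2 fell in KPCML1, 0 rose and 6 fell in KPC, 1 rose and 4 fell in C26 and 1 rose and 7 fell in KPP. Of 5 tested proliferation markers, 2 fell in KPP and no other call was made. Of the 10 skeletal muscle markers, 1 rose and 1 fell in LLC, 0 rose and 1 fell in KPCML1, 2 rose and 0 fell in KPC, 1 rose and 3 fell in C26 and 3 rose and 1 fell in KPP. The part of these cell types in the results was not tested.

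Genes around the core pathway were described by lists chosen with earlier results of these data known, up to 4 genes each, named by how many comparisons called them. They were not refitted with single libraries left out. Among all genes tested, 13.6% were called in LLC, 8.53% in KPCML1, 29.1% in KPC, 21.3% in C26 and 36.7% in KPP. Several list counts lay near or below these shares, such as transport in KPC and C26 and other glycogen steps in KPCML1. The genes named are therefore results for those genes, not for their lists. Of 14 tested genes of other glycolytic steps and shuttles, 1 rose and 5 fell in LLC, 0 rose and 2 fell in KPCML1, 0 rose and 3 fell in KPC, 0 rose and 6 fell in C26 and 0 rose and 5 fell in KPP, with medians of -0.31 in LLC, -0.50 in KPCML1, -0.52 in KPC, -0.38 in C26 and -0.82 in KPP. Gpd1, the cytosolic enzyme that links glycolysis to glycerol 3-phosphate, fell, with log2 fold changes of -2.01 ± 0.38 in LLC, -1.44 ± 0.37 in KPCML1, -1.16 ± 0.37 in KPC, -2.41 ± 0.38 in C26 and -2.80 ± 0.39 in KPP (edgeR adjusted p = 0.000192 to 0.0312). Its mitochondrial partner Gpd2 had -0.59 ± 0.18 in KPC, -1.50 ± 0.19 in C26 and -1.43 ± 0.19 in KPP (edgeR adjusted p = 0.000132 to 0.0268). Bpgm, which makes 2,3-bisphosphoglycerate and is also on the erythroid list, had -1.22 ± 0.30 in LLC, -1.67 ± 0.31 in C26 and -1.50 ± 0.31 in KPP (edgeR adjusted p = 0.00204 to 0.0176). Tigar, a fructose bisphosphatase that lowers glycolytic flux, had -0.85 ± 0.24 in KPC, -0.99 ± 0.24 in C26 and -0.74 ± 0.24 in KPP (edgeR adjusted p = 0.0114 to 0.0288).

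Of 23 tested genes in other glycogen steps, 3 rose and 3 fell in LLC, 1 rose and 1 fell in KPCML1, 4 rose and 4 fell in KPC, 1 rose and 3 fell in C26 and 5 rose and 6 fell in KPP. Gaa, the lysosomal enzyme that degrades glycogen, rose in all 5, with log2 fold changes of 1.98 ± 0.28 in LLC, 1.27 ± 0.28 in KPCML1, 1.73 ± 0.28 in KPC, 1.90 ± 0.28 in C26 and 2.06 ± 0.28 in KPP (edgeR adjusted p = 0.000179 to 0.0142). Pgm1, which turns glucose 1-phosphate to glucose 6-phosphate, fell, with -1.15 ± 0.29 in KPCML1, -1.38 ± 0.29 in KPC, -1.94 ± 0.30 in C26 and -2.17 ± 0.30 in KPP (edgeR adjusted p = 0.000181 to 0.0277). Pgm2l1 had -0.78 ± 0.22 in KPC, -0.89 ± 0.22 in C26 and -0.97 ± 0.22 in KPP (edgeR adjusted p = 0.00463 to 0.0187). Gys2, the liver glycogen synthase, was called lower in LLC, KPC and KPP at very low levels, at most 0.0914 CPM in those tumour libraries and 0.0850 to 1.30 CPM in their controls.

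Of 19 tested genes of other transport, 2 rose and 2 fell in LLC, 1 rose and 1 fell in KPCML1, 2 rose and 3 fell in KPC, 0 rose and 2 fell in C26 and 2 rose and 6 fell in KPP. Tbc1d4, which holds GLUT4 inside the cell until insulin signals, rose with 2.37 ± 0.43 in KPCML1, 1.30 ± 0.42 in KPC and 1.75 ± 0.42 in KPP (edgeR adjusted p = 0.00593 to 0.0329). Its relative Tbc1d1 rose in KPC and fell in KPP, with 0.83 ± 0.26 in KPC and -0.96 ± 0.27 in KPP (edgeR adjusted p = 0.0121 to 0.0304). Rab10, a small GTPase of GLUT4 vesicles, had -0.78 ± 0.14 in KPCML1, -0.48 ± 0.14 in C26 and -0.67 ± 0.14 in KPP (edgeR adjusted p = 0.00217 to 0.0255), and the sugar transporter Slc2a12 -1.11 ± 0.33 in LLC, -1.82 ± 0.34 in KPC, -1.09 ± 0.33 in C26 and -0.96 ± 0.33 in KPP (edgeR adjusted p = 0.00191 to 0.0401).

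Of the 15 genes in the pentose phosphate and hexosamine branches, 2 rose and 0 fell in LLC, 2 rose and 0 fell in KPCML1, 3 rose and 2 fell in KPC, 2 rose and 2 fell in C26 and 2 rose and 3 fell in KPP. Pgd, an oxidative pentose phosphate enzyme, rose in all 5, with 1.66 ± 0.25 in LLC, 1.18 ± 0.24 in KPCML1, 1.29 ± 0.24 in KPC, 0.94 ± 0.24 in C26 and 0.85 ± 0.24 in KPP (edgeR adjusted p = 0.000951 to 0.0148). Tkt, transketolase, had 1.84 ± 0.32 in LLC, 2.12 ± 0.32 in KPCML1 and 2.16 ± 0.32 in KPC (edgeR adjusted p = 0.000523 to 0.00248). Rpia fell with -0.72 ± 0.22 in KPC and -0.74 ± 0.22 in C26 (edgeR adjusted p = 0.0235 to 0.0275), and Sord, sorbitol dehydrogenase, moved in both directions, with 0.70 ± 0.18 in C26 and -0.50 ± 0.18 in KPP (edgeR adjusted p = 0.0138 to 0.041).

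Of 23 regulators of glycolytic transcription, 4 rose and 0 fell in LLC, 4 rose and 1 fell in KPCML1, 9 rose and 4 fell in KPC, 4 rose and 4 fell in C26 and 5 rose and 3 fell in KPP. Klf15, a glucocorticoid-induced factor of metabolic genes, rose with 1.75 ± 0.26 in LLC, 1.51 ± 0.26 in KPCML1, 2.16 ± 0.26 in KPC, 1.27 ± 0.26 in C26 and 2.18 ± 0.26 in KPP (edgeR adjusted p = 8.88e-05 to 0.00438). Arnt, the partner of HIF-1 alpha, had 1.28 ± 0.18 in LLC, 0.98 ± 0.17 in KPCML1, 1.24 ± 0.17 in KPC, 1.12 ± 0.17 in C26 and 0.83 ± 0.17 in KPP (edgeR adjusted p = 0.000407 to 0.00562). Foxk1, a forkhead factor, had 1.75 ± 0.31 in LLC, 1.67 ± 0.30 in KPC, 1.11 ± 0.30 in C26 and 1.22 ± 0.30 in KPP (edgeR adjusted p = 0.00164 to 0.0187). Prkag3, the AMP-activated kinase subunit of fast fibres, fell with -1.79 ± 0.32 in KPCML1, -2.08 ± 0.33 in KPC, -2.52 ± 0.33 in C26 and -2.95 ± 0.34 in KPP (edgeR adjusted p = 7.4e-05 to 0.00577).

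In a joint test of whether the 5 models differ, 6 of the 37 genes passed (edgeR adjusted p under 0.05), against 8.32% of all genes tested. They were Gpi1 (adjusted p = 0.0096), Pfkl (0.0228), Pfkfb4 (0.0266), Slc16a3 (0.0287), Pfkfb1 (0.0375) and Ppp1r3c (0.0398). Slc16a3 stood at a log2 fold change of -0.43 in KPC but -2.52 in LLC, and Ppp1r3c at 0.07 in LLC but 2.30 in KPCML1. The count depended on the fit: it was 18 with DESeq2 and 18 without a filter on low counts, and 2 with a replicate block. With 1 library left out it was 1 to 3 without any LLC, KPCML1, Matrigel or C26 control library, 12 and 15 without a C26 tumour library, and 4 to 7 otherwise. Of the 6, only Gpi1 passed with each of the 18 libraries left out; with the replicate block it had an adjusted p of 0.0541 by edgeR. The other 31 genes did not pass this test, which does not show that the models act alike.

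The authors' deposited tables for LLC, KPC, C26 and KPP called 20, 7, 15 and 12 of the 37 genes lower and 4, 6, 3 and 3 higher at their adjusted p under 0.05. All 15 calls made here in LLC and all 18 in C26 were made in the authors' deposited table in the same direction, as were 10 of 15 in KPC and 15 of 18 in KPP, and none went the opposite way. Some genes were called by the authors but not here. In LLC these were Phka1, Phkg1, Phkb, Pygm, Gys1, Ldhb and Aldoa, lower, and Gbe1 and Slc2a1, higher. In KPC they were Phkg1, Ldha and Pfkm, all lower. Other genes were called lower here but not by the authors. In KPC these were Pkm (DESeq2 adjusted p = 0.112 in their table), Pgk1, Pfkfb1, Pfkfb2 and Pgam1. In KPP they were Pfkl (DESeq2 adjusted p = 0.0764 in their table), Pfkfb1 and Pgam1. In the authors' deposited table for LLC, Eno3 had a log2 fold change of -2.95 and Tpi1 -2.60. The largest gap between a deposited value and the one computed here was 0.58 on the log2 scale, in KPP.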

How the data were processed

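RNA was extracted with Trizol, poly(A) RNA was made into directional libraries and sequenced as read pairs on a NovaSeq, per the labels' protocols. The submitters' processing notes name bcl2fastq 2.20, FastQC, Salmon, DESeq2 and the build mm10, without settings. The authors deposited, per transcript, estimated counts, effective lengths and TPM by Salmon, and tables of log2 fold changes with adjusted p-values by DESeq2, per the file headers. One of those tables, whose name gives a cell number that no label has, was not used here.

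Estimated counts were summed by gene with GENCODE M21, which matched 139881 of 140825 transcripts; fragments of the other 944 were 0.416 to 0.693% of a library. Rounded counts were filtered (filterByExpr, minimum count 10), scaled by TMM and tested in 1 model of 9 groups with edgeR 4.0.16 in R 4.3.3 (quasi-likelihood, 9 residual degrees of freedom), with Benjamini-Hochberg adjustment over 16089 genes and a threshold of 0.05. DESeq2 1.42.0 was an alternative. Transcript shares and isozyme ratios were computed from TPM and tested by exact permutation within experiments. The counts are not corrected for transcript length in the main fit. The edgeR gene fit and the edgeR transcript usage test were run on simulated data with known changes in LLC.

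Values are given per library for Hk2, Pfkm, Pygm, Gys1, Slc2a4, Pkm and every other member called in at least 2 comparisons, for other members as ranges, and for up to 4 genes of each other pathway list. Members and lists were chosen with earlier results of these data known. Same-numbered replicates were not taken as pairs.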

Additional observations from a re-analysis of the deposited data

Results flagged for a closer look

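The changes of 6 genes differed among the 5 tumour models in the joint edgeR test. Gpi1 (adjusted p = 0.0096) was called higher in 3 models, most in KPP at a log2 fold change of 1.53, and stood at -0.17 in LLC. Pfkl (edgeR adjusted p = 0.0228) was at 0.91 in LLC and -1.05 in KPP. Pfkfb4 (edgeR adjusted p = 0.0266) was at 1.21 in LLC and 0.64 in KPC, and between -0.24 and 0.12 in the other models. Slc16a3 (edgeR adjusted p = 0.0287) was at -2.52 in LLC and -0.43 in KPC. Pfkfb1 (edgeR adjusted p = 0.0375) was at -1.75 in LLC and -0.49 in KPCML1. Ppp1r3c (edgeR adjusted p = 0.0398) was at 2.30 in KPCML1 and 0.07 in LLC. With 1 of the 18 libraries left out, the difference among models passed in 18 of 18 fits for Gpi1, 12 for Pfkfb4, 11 for Pfkl, 8 for Slc16a3, 6 for Pfkfb1 and 5 for Ppp1r3c. Models differ in strain, tumour site, vehicle and time of endpoint as well as in tumour, and these cannot be told apart.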

How the results depend on the processing

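No call of the 37 genes changed sign under any alternative run. Of 75 calls, 33 passed with any 1 of the 18 libraries left out: 8 of 15 in LLC, 0 of 9 in KPCML1, 3 of 15 in KPC, 11 of 18 in C26 and 11 of 18 in KPP. With 1 library left out, the number of members called ran from 8 to 17 in LLC, from 0 to 10 in KPCML1, from 6 to 19 in KPC, from 12 to 19 in C26 and from 14 to 21 in KPP; the number that differed among models ran from 1 to 15, the number of isozyme ratios called from 6 to 7, the Pkm-201 over Pkm-202 change from 0.11 to 0.26, and the number of member transcripts with a changed share was 0 to 0. The Pkm ratio passed (exact permutation, adjusted p = 0.03) only without KPP tumour replicate 2, at 0.26. The number that differed among models was 18 with DESeq2 and 18 without a filter on low counts. A fit with each experiment alone, which has fewer libraries to estimate the spread, ended 13 calls and added 9; length-scaled counts ended 7 and added 2; upper-quartile scaling, which moved the median of all genes to -0.20 in KPC, -0.17 in KPP and -0.10 in LLC, ended 4 and added 7; RLE size factors ended 2, and DESeq2 ended 0 and added 9. Removing the filter ended 1 and added 19, and adding near-identical copies changed none; the cause of these changes was not tested.

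Replicate numbers did not pair the libraries: deviations of same-numbered libraries correlated at 0.0095 in LLC, 0.093 and -0.052 between Matrigel and the KPCML1 and KPC groups, -0.075 in C26 and -0.17 in KPP. With a replicate block, 12 members were called in LLC, 5 in KPCML1, 12 in KPC, 15 in C26 and 17 in KPP, 2 differed among models, 6 isozyme ratios were called, the Pkm ratio stayed at 0.19 and 0 transcript shares were called. With the KPP numbers crossed, an alternative chosen after seeing the data, the block gave 15, 6, 15, 16 and 19 calls and 4 that differed among models. Other alternatives chosen after the data had been seen were those of the transcript shares, which stayed at 4 with estimated counts and with a stricter limit on a transcript's share, and Eno1b in the enolase ratio. No usage test of Pkm transcripts passed under the filter, block or single libraries left out. Having 2 libraries a group limits what these fits can tell apart.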
